A study of Mus musculus with 4 samples.

Results

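The 9 genes described here carry the retinoic acid pathway from uptake of its precursor to transcription: Stra6, Aldh1a2, Crabp1, Crabp2, Cyp26a1, Rara, Rarb, Rarg and Rxra. They were taken by gene symbol and are 9 of 14386 genes on the named spots of the array, with 36 of 32064 such spots. The list was proposed with the log2 ratios of these same 4 arrays in view, so the genes count as chosen by those ratios, and all values below are descriptions without a test. The cells were CGR8, a mouse embryonic stem cell line. RNA of embryoid bodies, the aggregates such cells form in hanging drops, was taken at day 3 and at day 10 and hybridised on arrays with 2 channels together with RNA of undifferentiated day 0 cells. Each day had 2 arrays, of which the second is labelled a technical replicate, so a day is 1 RNA sample and n = 2 counts technical arrays. No genotype, added agent or biological replicate is named in the labels.

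Retinol enters cells in part through the receptor STRA6 and is oxidised in steps to retinoic acid, the last of them by enzymes such as ALDH1A2. Retinoic acid is carried in the cytosol by CRABP1 and CRABP2, is broken down by CYP26A1, and acts on the nuclear receptors RARA, RARB and RARG, which bind DNA as dimers with RXR proteins such as RXRA. CRABP2 is known for handing retinoic acid to the receptors, and retinoic acid is a widely used agent to direct stem cells in embryoid bodies towards neural and other fates.

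Rarb and Cyp26a1 are textbook targets of the receptors, and their promoters are shown because the receptor-binding repeat can be seen in them, beside the promoter of Crabp1, the member with the largest difference between the days. Each is 300 bases long, from 250 before to 50 after the transcription start, 5′ to 3′ on the gene's strand, from RefSeq on build GRCm38.p6. They lie at chr14:16575427-16575726 on the minus strand, chr19:37697558-37697857 on the plus strand and chr9:54764498-54764797 on the plus strand. Capitals mark a DR5 element, a direct repeat of the receptor hexamer AGGTCA or AGTTCA or GGGTCA or GGTTCA with 5 bases between the copies, searched on both strands.
Rarb: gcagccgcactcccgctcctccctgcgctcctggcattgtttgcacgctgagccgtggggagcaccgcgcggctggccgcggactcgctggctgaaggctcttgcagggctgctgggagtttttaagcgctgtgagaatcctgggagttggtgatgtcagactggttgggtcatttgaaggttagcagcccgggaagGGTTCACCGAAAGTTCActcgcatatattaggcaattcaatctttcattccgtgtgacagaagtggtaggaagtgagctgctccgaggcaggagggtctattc
Cyp26a1: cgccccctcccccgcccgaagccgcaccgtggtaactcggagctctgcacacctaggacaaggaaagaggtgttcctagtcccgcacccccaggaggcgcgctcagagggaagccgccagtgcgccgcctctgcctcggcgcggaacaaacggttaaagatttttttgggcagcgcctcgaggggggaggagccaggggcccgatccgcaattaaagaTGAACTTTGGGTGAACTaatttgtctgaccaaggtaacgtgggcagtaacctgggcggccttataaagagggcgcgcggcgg
Crabp1: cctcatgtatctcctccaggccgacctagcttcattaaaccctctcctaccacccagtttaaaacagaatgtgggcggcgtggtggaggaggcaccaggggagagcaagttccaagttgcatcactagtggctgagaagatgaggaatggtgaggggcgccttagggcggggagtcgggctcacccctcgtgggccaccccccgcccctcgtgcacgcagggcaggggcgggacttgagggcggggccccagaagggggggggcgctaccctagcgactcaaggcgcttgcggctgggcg

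The Rarb element, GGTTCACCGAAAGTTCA, lies 53 to 37 bases before the start. That of Cyp26a1 is on the opposite strand, 32 to 16 bases before the start, and reads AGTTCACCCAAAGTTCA on that strand. DR5 elements were found in 32 of 32851 promoters of this length (0.0974%) and in 2 of the 16 promoters that the table holds for 8 of the 9 genes. A single hexamer, which each DR5 also contains, was in 43.7% of all promoters and in 7 of those 16. Repeats with 1 base between the hexamers (DR1, 0.222% of all promoters) or 2 (DR2, 0.268%) were in none of the 16, nor was there a hexamer in the Crabp1 window. These matches describe letters alone.

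The values are log2 ratios of the 2 channels, set to a median of 0 on each array, with the spots of a gene averaged. The sources used here give neither the dyes nor the numerator, so a value is on the positive or the negative side and does not say which day had more RNA. Of the stem cell markers, 7 were measured at day 3, with a median of -0.48 and a range from -2.71 to -0.29, and 6 at day 10, with a median of -0.78 and a range from -1.39 to 0.55. The pluripotency gene Pou5f1 read -0.79 and -1.002 at day 3 and -0.69 and -2.09 at day 10. Dppa5a, restricted to stem cells, read -2.74 and -2.69 at day 3 and 0.41 and -2.85 at day 10, the lowest of these markers at day 3. Mesp1, an early mesoderm gene, read 2.04 and 1.89 at day 3, the highest of 4 mesoderm markers, whose median was 0.56 and lowest -0.12. At day 10 Mesp1 had a value on the first array alone, 1.55. Its brightness percentile, a measure described below, was 12.2. Of 5 neural markers at day 3, with a median of 0.46 and a lowest value of -0.22, Neurog2 alone was beyond 2-fold, at 1.08 and 1.36. No endoderm, cardiac or fibroblast marker was beyond 2-fold at either day, and no mesoderm or neural marker at day 10. In RNA of whole aggregates, fewer cells of a type and less RNA per cell cannot be told apart. Calls beyond 2-fold require a value of at least 1 (log2) in size, with 1 sign, on each array of the day. The error of 1 array, a root mean square from the technical arrays over all genes, was 0.62 at day 3 and 0.73 at day 10. The median SD of a gene between the technical arrays was lower, at 0.28 and 0.36. The error of 1 spot, from neighbouring duplicate spots, was between 0.64 and 0.86.

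Of the 9 genes, 1 was beyond 2-fold at day 3 and 1 at day 10, Crabp2 on the negative side in both cases, and 1, Crabp1, was beyond 2-fold between the days. Of all genes, 2.80% were called at day 3, 3.54% at day 10 and 3.54% between the days, and nothing is read from the members' counts, since these arrays chose them. The median of the 9 was 0.10 at day 3 and 0.03 at day 10, against 0.0052 and -0.010 over all genes. Both arrays had the same sign for 4 of the 9 at day 3 and 5 at day 10, where 64.7% and 60.8% of all genes did.

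**Figure D1:**
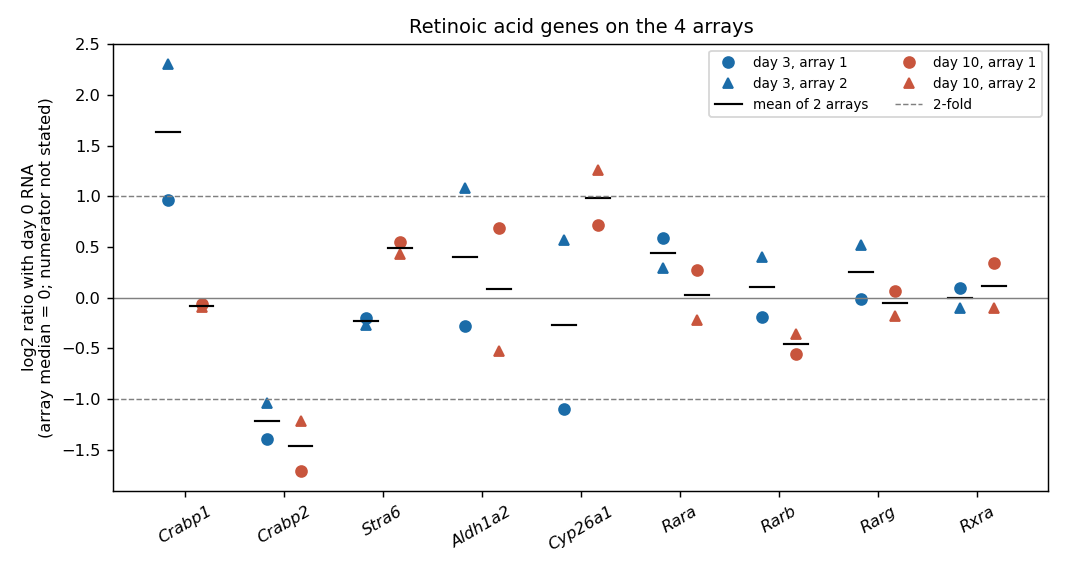
Log2 ratio with day 0 RNA (y axis) of the 9 retinoic acid genes (x axis) on each array, with circles and triangles for the technical arrays, black bars for their mean and dashed lines at 2-fold. The 4 Crabp2 points sit between -1.71 and -1.04, and the day 3 points of Crabp1, at 0.97 and 2.30, lie apart from its day 10 points near 0.

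The cytosolic binding proteins held the values farthest from 0. Crabp2, whose product delivers retinoic acid to the nuclear receptors, read -1.40 and -1.04 at day 3 and -1.71 and -1.22 at day 10. All 4 arrays were beyond 2-fold on the negative side, and the values of the days overlapped. The mean was -1.22 ± 0.25 (SD of 2 technical arrays, as for all means here) at day 3 and -1.46 ± 0.34 at day 10. These are 2.33-fold and 2.76-fold from the array median. The difference, day 10 minus day 3, was -0.25 ± 0.43, smaller than its error. Genes on the negative side beyond 2-fold at both days were 0.205% of the 12654 with values on 4 arrays, and both ratios contain the day 0 RNA.

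The duplicate spots of Crabp2 carry the same sequence, M35523. The first read -1.66 and -1.10 at day 3 and -1.30 and -1.21 at day 10, and the second -1.13, -0.98, -2.11 and -1.23 on the arrays in the same order. Thus 7 of 8 readings were beyond 2-fold. The exception, -0.98, belongs to the spot with the smaller difference between the arrays, and with that spot alone Crabp2 was not called at day 3. Crabp2 had a brightness percentile of 68.0 among all genes, a measure of spot signal recovered from the ratios that gives a lower bound.

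Crabp1, the other cytosolic carrier, is often linked to retention and breakdown of retinoic acid. It read 0.97 and 2.30 at day 3 and -0.06 and -0.09 at day 10. The arrays of the days did not overlap, with both day 3 arrays high and both day 10 arrays near 0. The day 3 mean, 1.63 ± 0.95, was above that of 99.1% of genes, yet the first array fell short of the limit by a small margin, so Crabp1 was just outside it, while Crabp2, with -1.04 on its weaker array, was just inside. The day 10 mean was -0.08 ± 0.02.

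Setting each day 10 array against each day 3 array gave 4 differences for Crabp1, all on the negative side, at -1.03, -1.06, -2.37 and -2.40, with a mean of -1.71 ± 0.95. The 2 differences near the limit both contain the first day 3 array. Its duplicate spots, of sequence NM_013496, lay close together, at 1.08 and 0.85 on the first day 3 array, 2.48 and 2.13 on the second, -0.25 and 0.13 on the first day 10 array and -0.11 and -0.07 on the second. The SD between the duplicates was 0.16 and 0.25 on the day 3 arrays, while the SD between those arrays was 0.95. With the spot of smaller array difference at each day, the smallest of the 4 differences was -0.96 and Crabp1 was not called between the days. Its spots were at brightness percentiles of 47.2 and 42.3.

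**Figure D2:**
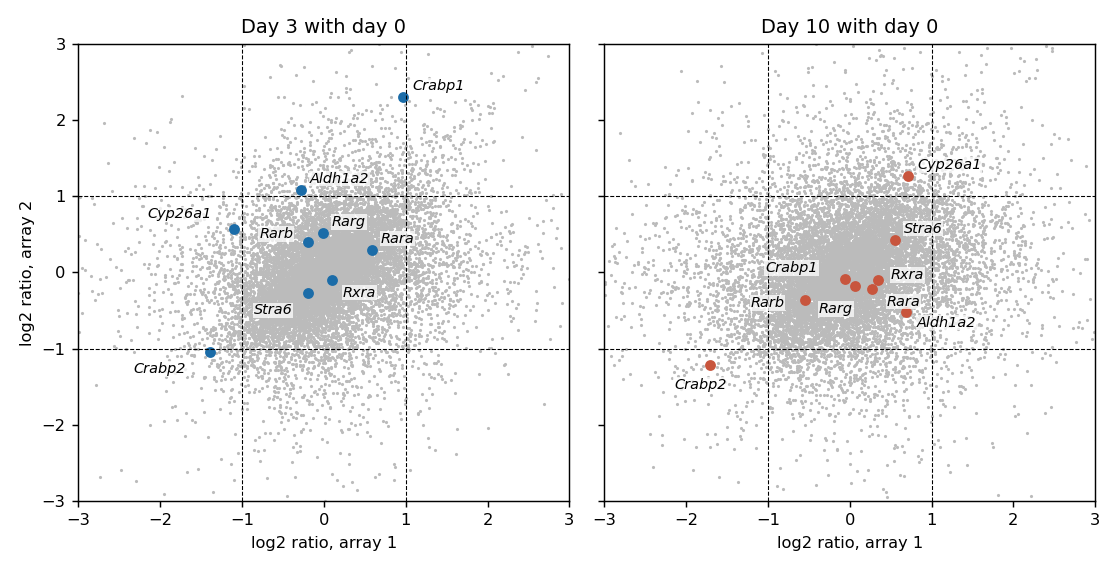
Log2 ratio on the second technical array (y axis) against the first (x axis) at day 3 and day 10, with all genes measured on both arrays in grey, the 9 retinoic acid genes in colour and dashed lines at 2-fold. The axes end at 3 on either side, which leaves out 84 of 13707 genes at day 3 and 115 of 13199 at day 10. Crabp2 lies beyond the lower left lines on both days, and Crabp1 lies at the edge of the upper right field at day 3 and near the centre at day 10.

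Among the genes for supply and removal of retinoic acid, the technical arrays lay close together for Stra6 and apart for Aldh1a2 and, at day 3, for Cyp26a1. Stra6, the membrane receptor through which retinol is taken up, read -0.20 and -0.27 at day 3 and 0.55 and 0.43 at day 10. Both day 3 arrays were below 0 and both day 10 arrays above it, without overlap. Its means were -0.23 ± 0.05 and 0.49 ± 0.08, and the difference, 0.72 ± 0.10, was below 2-fold. That difference lay between the errors of 1 array over all genes at day 3 (0.62) and at day 10 (0.73). With the spot of smaller array difference the means were -0.16 and 0.17, so the difference fell to 0.33. All 8 Stra6 spot readings kept the sign of their day, from -0.41 to -0.13 at day 3 and from 0.11 to 0.98 at day 10. Of all genes with 4 values, 14.0% had both day 3 arrays on 1 side of 0 and both day 10 arrays on the other, as Stra6 and Crabp1 did.

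Aldh1a2, the enzyme that makes retinoic acid in the early embryo, read -0.28 and 1.09 at day 3 and 0.69 and -0.52 at day 10. At either day the arrays had opposite signs. The means were 0.40 ± 0.97 and 0.08 ± 0.86, within their errors of 0 and of each other. One of its duplicate spots had no value on the first day 3 array and otherwise read 1.77, 1.58 and -0.87, while the other stayed between -0.28 and 0.40, so the spread came mostly from 1 spot.

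Cyp26a1, which clears retinoic acid and carries the DR5 element shown above, read -1.10 and 0.57 at day 3 and 0.71 and 1.26 at day 10. The day 3 mean was -0.27 ± 1.18 and the day 10 mean 0.99 ± 0.39, which was above that of 93.7% of genes. On the second day 10 array alone it was beyond 2-fold on the positive side, and on the first day 3 array alone beyond 2-fold on the negative side. That negative value came from a single reading of -2.39, since the duplicate spot read 0.19 on the same array. Apart from it, the 7 other readings of Cyp26a1 were positive, from 0.16 to 1.496. Without the first day 3 array its day 3 value was 0.57, which turned the sign. With the spot of smaller array difference it was called at day 10, at 1.26 and 1.496. Cyp26a1 had a low brightness percentile, 11.5, although this measure is a lower bound.

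The nuclear receptors lay near 0 when their spots were averaged. Rara, the receptor found in most tissues, read 0.59 and 0.30 at day 3 and 0.27 and -0.22 at day 10. Its means were 0.44 ± 0.20 and 0.03 ± 0.35. Rarb, itself a target of retinoic acid, read -0.20 and 0.40 at day 3 and -0.55 and -0.36 at day 10. The day 10 mean of Rarb was -0.46 ± 0.14, with both arrays negative, and the day 3 mean was 0.10 ± 0.42.

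Rarg read -0.01 and 0.52 at day 3 and 0.07 and -0.18 at day 10, with means of 0.25 ± 0.37 and -0.06 ± 0.17. Rxra, the shared dimer partner, read 0.10 and -0.10 at day 3 and 0.34 and -0.11 at day 10, with means of -0.0036 ± 0.14 and 0.12 ± 0.32. For each of the 4 receptors the difference between the days was smaller than 2-fold, from -0.56 ± 0.44 for Rarb to 0.12 ± 0.35 for Rxra. In the order of the day 3 means, Crabp1 stood first and Crabp2 last, and the 7 genes between them, from Rara at 0.44 to Cyp26a1 at -0.27, did not differ from their neighbours beyond the spread of the arrays, except that the arrays of Rxra and Stra6 did not overlap. At day 10 Cyp26a1 was highest at 0.99, followed by Stra6 at 0.49, and Crabp2 was again lowest, after Rarb at -0.46.

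The receptor averages join spotted sequences that did not read alike. Rara and Rarg were each spotted as 5 database sequences and Rarb as 2, every one in duplicate. Which transcript or part of the gene each sequence covers is not given in the files used here. Of the Rara sequences, X56570 had the narrowest range of readings within each day, with 4 spot readings from 0.72 to 0.84 at day 3 and 4 from 0.18 to 0.61 at day 10. In contrast, X56565 had means of -0.21 ± 0.31 and -0.50 ± 0.07, but its spot readings lay on both sides of 0 at either day. They ran from -0.86 to 0.40 at day 3 and from -1.31 to 0.41 at day 10. X56571 had a mean of 0.90 ± 0.22 at day 3. The day 10 value of X56571 rests on single spots of -0.11 and -1.87.

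For Rarg the sequences lay on both sides of 0. M32070 was negative in each of its 6 readings, with means of -0.72 ± 0.19 at day 3 and -0.90 ± 0.05 at day 10, and its spots were bright, at percentiles of 94.2 and 76.6. M32073 was positive in each of its 6 readings, with means of 0.77 ± 0.40 and 1.15 ± 0.77, at percentiles of 24.6 and 18.2. Its day 10 mean rests on 1 spot, which read 1.70 and 0.60. NM_011244 was near 0 at day 3, at -0.05 ± 0.17, and at -0.72 ± 0.21 at day 10, where its spot readings ran from -2.08 to 0.35. On the second day 3 array the sequences M32071, M32072 and M32073 read 1.12, 1.15 and 1.06, while on the first they read -0.09, -0.11 and 0.49. The spots of M32072 ran from -2.73 to 0.63 at day 10. Spot readings of Rarg as a whole spanned -2.73 to 2.40 on the first day 10 array, so its mean near 0 there covers values on both sides.

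The Rarb sequence X56573 had bright spots, at percentiles of 97.8 and 93.2, and stayed near 0, with means of -0.16 ± 0.12 at day 3 and -0.31 ± 0.15 at day 10. X56574 was at 0.37 ± 0.97 at day 3, where 1 spot read 2.06 on the second array and its duplicate 0.05. The positive day 3 mean of Rarb depended on the spot that read 2.06, and the median of the spots gave -0.08. At day 10 X56574 was at -0.68 ± 0.01, where the second array rests on 1 spot.

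**Figure D3:**
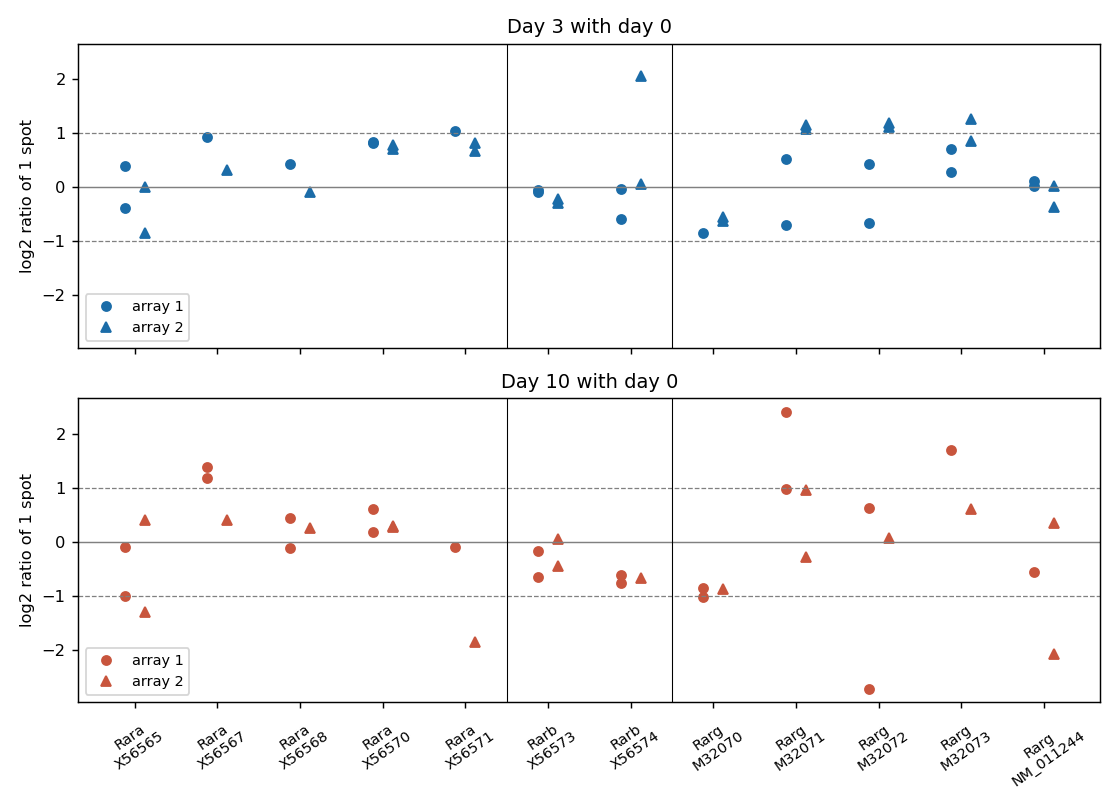
Log2 ratio of each spot (y axis) for the 12 spotted sequences of Rara, Rarb and Rarg (x axis, with the database name of the sequence) at day 3 and day 10, with circles for the first and triangles for the second technical array, and dashed lines at 2-fold. Among the Rarg sequences, M32070 lies below 0 and M32073 above 0 in every reading, and at day 3 the 4 readings of Rara X56570 lie closest together.

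Other genes of the pathway were taken from 6 lists made with earlier results of these data known, of which the one for retinoic acid degradation (3 genes) had none on a named spot. Of 116 listed genes 91 were on a named spot, and 86 had values on both arrays at day 3 and 80 at day 10. At day 3, 3 were beyond 2-fold, 2 of them positive and 1 negative (3.49%, against 2.80% of all genes), and at day 10, 1 on the negative side (1.25%, against 3.54%). Between the days none of 76 was called. Their medians were -0.06 at day 3 and -0.06 at day 10, close to those of all genes. Both shares are near or below the background of all genes.

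Among the 12 other RXR genes and dimer partners measured at day 3, Ppara, the fatty acid receptor, read 1.05 and 2.25 and Thra, a thyroid hormone receptor, -1.06 and -1.03. At day 10 Vdr, the vitamin D receptor, was called, at -1.09 and -1.39, while its day 3 arrays read 1.08 and -0.48. Ppara had a low brightness percentile, 6.92, and Vdr was at 15.0. Rxrb, the bright paralog of Rxra with a percentile of 97.3, stayed near 0 on every array, from -0.02 to 0.21.

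Of 36 genes known to respond to retinoic acid, 1 was called at day 3, Rarres2, which encodes the secreted protein chemerin, at 1.27 and 1.29. It read -0.16 and 0.28 at day 10. Tgm2, a transglutaminase gene, read -0.99985 and -1.00035 at day 3, so that its first array lay just outside the limit, and it passed without centring, at -1.03 on both. None of 32 was called at day 10. The Hox and other response genes as a list had medians of -0.04 and -0.10.

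No gene was called in the lists for retinol uptake and binding (7 measured at day 3 and 5 at day 10), for retinoid synthesis and storage (17 and 18) or for corepressors and coactivators (14 and 12). Their medians lay between -0.22 and 0.20. Rbp4, the retinol carrier of blood, read 3.09 and -0.51 at day 3, so its mean of 1.29 rests on 1 array. Aldh1a1 read -0.82 and 0.17 at day 3 and 0.46 and 0.28 at day 10, and Aldh1a3 0.77, -0.16, 0.30 and 0.96 on the arrays in the same order. Cyp26b1, Cyp26c1, Cyp2s1 and Rxrg were not analysed here.

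**Figure D4:**
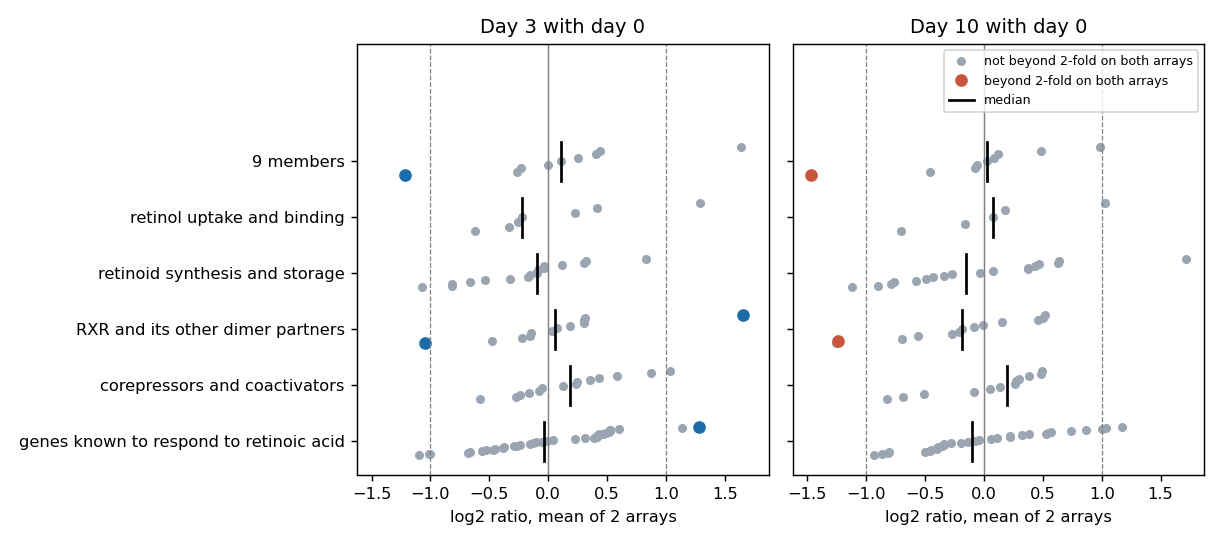
Mean log2 ratio of the 2 technical arrays (x axis) for the 9 retinoic acid genes and 5 further pathway lists (y axis) at day 3 and day 10, with coloured points for genes beyond 2-fold on both arrays, black lines at list medians and dashed lines at 2-fold. List medians stay between -0.22 and 0.20, and coloured points are few: 4 genes at day 3, Crabp2 included, and 2 at day 10.

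The genes nearest in pattern were found by Euclidean distance over the 4 arrays among 12654 genes. RIKEN, EST and predicted names were then left out, so the genes named are the nearest of those that remained. Nearest to Crabp1 were Tnfsf11 at a distance of 0.38, Odf2 at 0.47 and Igtp at 0.50. Tnfsf11 read 0.97 and 1.99 at day 3 and 0.15 and -0.12 at day 10. Nearest to Crabp2 were Myf6 at 0.31, Smpd3 at 0.31 and Eif3c at 0.34. Myf6 read -1.38 and -1.19 at day 3 and -1.46 and -1.11 at day 10. With 4 arrays of 2 RNA samples, these distances are below the error of a single array.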

How the data were processed

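Per the labels, 4 arrays were hybridised, 2 with total RNA of day 3 and 2 with that of day 10 CGR8 embryoid bodies, each together with RNA of day 0. The deposited values were taken as log2 ratios of the channels, a base read from the values. Not given in the sources used here are the scanner, software, dyes, numerator, background treatment and dye correction. Between 10.3% and 18.8% of the 46128 spots of an array had no value.

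Spots were named through a platform annotation table, with symbols checked by Entrez ID against RefSeq genes of GRCm38.p6. Spots with several symbols (588) or without a row (12996) and 480 control spots of 5 accessions were left out. Each array was centred on its median and all spots of 1 gene averaged. With 1 RNA sample per day no significance test was run, and the number of arrays limits the precision.

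Calls beyond 2-fold required values of at least 1 (log2) in size with 1 sign on both arrays of a day, or in all 4 differences between the days. Named are the 9 genes, the other pathway genes called at either day, 8 paralogs, of which 4 were on a named spot, and the 3 nearest genes of the member farthest from 0 at each day. The nearest genes leave out RIKEN, EST and predicted names. Pou5f1, Dppa5a and Mesp1 are named from the marker lists. Tgm2 and Neurog2 were named after their values were seen. The members and lists were chosen with earlier results of these data known. Brightness was taken from the smallest pair of whole numbers that gives a deposited value as its ratio (log2 of their geometric mean), a lower bound. Promoter sequences are from RefSeq. The alternatives changed centring, array spread, the choice of spots, a filter on spot brightness, the fold limit and the arrays used. The steps were tested on simulated data. Python 3.11.15, numpy 2.4.6, pandas 2.3.3 and matplotlib 3.10.9 were used.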

Additional observations from a re-analysis of the deposited data

Results flagged for a closer look

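Crabp1 had both day 3 arrays on the positive and both day 10 arrays on the negative side of 0, with a difference, day 10 minus day 3, of -1.71, although its day 10 values of -0.06 and -0.09 were near 0. Stra6 had both day 3 arrays on the negative and both day 10 arrays on the positive side, with a difference of 0.72. Neither difference was tested, because each day is 1 RNA sample. The same arrangement was seen in 14.0% of all genes with 4 values.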

How the results depend on the processing

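The count of the 9 genes beyond 2-fold was 1 at day 3, 1 at day 10 and 1 between the days. It was the same without centring, with the median of the spots and with spots that had values on 4 arrays. The last 2 of these settings could not change the calls of Crabp1 and Crabp2. Each has 2 spots, all with values on 4 arrays. At a limit of 1.5-fold the counts were 2, 2 and 2 (Crabp1 joined at day 3, Cyp26a1 at day 10 and Stra6 between the days), and at 4-fold 0, 0 and 0. With the limit on the mean alone they were 2 at day 3, 1 at day 10 and 2 between the days. A common spread of the arrays gave 2 at day 3, where Crabp1 joined. The spot of smallest array difference gave 0 at day 3, 2 at day 10 and 0 between the days, and the brighter 50% of spots gave 0 between the days, where the Crabp1 spots did not pass the filter. Single arrays gave 2 and 3 at day 3 (Crabp2 with Cyp26a1, or with Crabp1 and Aldh1a2), 1 and 2 at day 10 and 1 to 2 between the days. Crabp2 was on the negative side beyond 2-fold on each array alone, which the call rule already requires of a called gene. The share of all genes called is given for the main setting only. Nothing is therefore read from how the counts of the 9 genes rise or fall at other settings.

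Other pathway genes, 3 at day 3 and 1 at day 10, numbered 10 and 7 at 1.5-fold, 0 and 0 at 4-fold, 10 and 8 on the mean alone, and from 8 to 17 and from 13 to 18 on single arrays. At day 3 they were 4 without centring and 4 with a common spread. They were 2 with the spot of smallest array difference, 2 with spots that had values on 4 arrays and 2 in the brighter 50% of spots. At day 10 they were 0 with a common spread, 5 with the spot of smallest array difference and 0 in the brighter 50% of spots. For these counts too, the share of all genes is given for the main setting only, and nothing is read from their rise or fall. Leaving out 1 of 2 arrays cannot move a mean by 1 SD, nor can the median of 2 spots differ from their mean. Of the 117 other alternative values of the 9 genes, 105 moved by less than 1 SD, 12 moved by more and 10 changed sign. These 117 include the setting of spots with values on 4 arrays. That setting could not move Crabp1, Crabp2, Stra6 or Cyp26a1, whose spots all had values on 4 arrays. Of the 72 values with 1 array left out, 12 changed sign. A called value could not do so, because the call rule already requires 1 sign. No paired analysis was possible because the labels give no shared replicate numbers. Technical arrays show no biological spread. The dyes are not given and no array is stated to be dye-swapped, so whether a dye effect cancels is unknown and was not tested.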
